A study of Mus musculus with 20 samples.

Results

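T cell acute lymphoblastic leukaemia (T-ALL) marked Rag- was compared with thymus grafts in the mouse. The members were chosen by their labels: 3 Illumina expression arrays whose source was T-ALL_Rag- and 4 whose source was a thymus graft at 10 weeks, together 7 of the 20 arrays of the series. All 7 came from mice of one cross, labelled F1(WB x B6/Ly5.1). The grafts were labelled as autonomous thymus and the T-ALL Rag- arrays as T cell acute lymphoblastic leukemia. The labels do not say what Rag- refers to (a host, a donor or the leukaemia), whether the cells of an array were sorted or used as a suspension, or whether the arrays of a group came from separate mice, so p-values measure only the spread between arrays, which may be partly technical. Grafts 1 and 2 were on chip 1, grafts 3 and 4 on chip 2 and the 3 T-ALL Rag- arrays on chip 3, so chip and group cannot be told apart. Another 7 arrays of T-ALL without the mark, 6 on chips 1 and 2 and T-ALL 7 on chip 3, are given beside the comparison.

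A thymus normally depends on progenitors that arrive from the bone marrow. In autonomous thymopoiesis the thymus keeps producing T cells without them, and such grafts can go on to T-ALL. Developing thymocytes pass from a double-negative stage without CD4 and CD8, where Notch signals and the pre-T cell receptor drive division, to a double-positive stage, where division stops, the recombinase Rag1-Rag2 joins the segments of the T cell receptor (TCR) alpha chain and the finished receptor is tested. T-ALL in mice often carries activated Notch1 and high Myc.

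Levels are the authors' normalized values on the log2 scale, on which background lay at 6.78 and the threshold for a signal above background at 7.12. Signals passed that threshold on 2 or more arrays for 12710 genes, which were tested with limma, with Benjamini-Hochberg adjustment over all of them and a call at an adjusted p below 0.05. The T-ALL Rag- arrays carried T lineage transcripts in quantity. The CD3 chain Cd3d was at 13.91 to 14.14 on them and at 13.60 to 14.69 on the grafts.

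Graft 3 stood apart from the other grafts and lay with the T-ALL Rag- arrays. Over the tested genes it correlated with the 3 T-ALL Rag- arrays at r = 0.980, 0.974 and 0.957, and with grafts 1, 2 and 4 at 0.909, 0.928 and 0.907. With the other T-ALL arrays graft 3 correlated at 0.932 to 0.979, so its closeness was not particular to T-ALL Rag-. Grafts 1, 2 and 4 correlated with T-ALL Rag- at 0.901 to 0.928, and the T-ALL Rag- arrays among themselves at 0.961 to 0.974. Grafts 1 and 4, from different chips, correlated at 0.994, closer than any pair of T-ALL Rag- arrays, and graft 2 correlated with both at 0.951. Counts of changed genes are therefore given with and without graft 3. Differences are given both ways for part of the genes, and where 1 difference stands alone it is the one without graft 3.

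**Figure D1:**
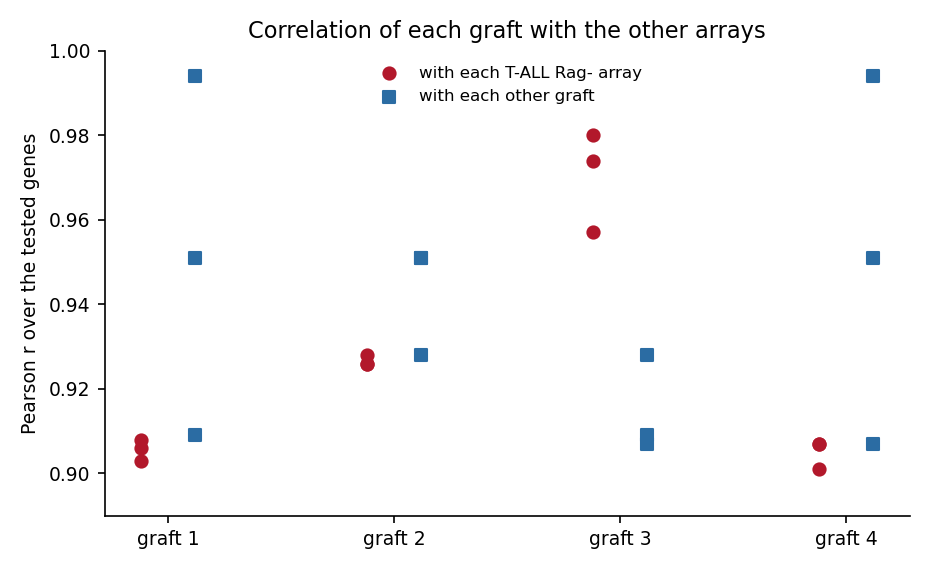
Pearson correlation over the tested genes (vertical axis) of each graft (horizontal axis) with each T-ALL Rag- array (red circles) and with each other graft (blue squares). For graft 3 the red circles lie at 0.957 to 0.980, above its blue squares at 0.907 to 0.928; for grafts 1, 2 and 4 the red circles lie at 0.901 to 0.928.

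Against all 4 grafts, 2 genes changed in T-ALL Rag-, 0.0157% of those tested, both lower, while 2075 genes had an unadjusted p below 0.05. Against grafts 1, 2 and 4, 1123 genes changed, 8.84% of those tested, with 506 higher (3.98%) and 617 lower (4.85%). Of the 1123, 653 differed at least 2-fold, 319 upward and 334 downward. All 1123 had the same sign against all 4 grafts, which is no separate support, because grafts 1, 2 and 4 make up most of that mean. Graft 3 lay nearer the T-ALL Rag- mean than the mean of the other grafts in 1040 of them (92.6%). It lay within the range of the T-ALL Rag- arrays in 529. The T-ALL Rag- arrays did not overlap with all 4 grafts in 432 of the 1123. Over all genes they did not overlap with the 4 grafts in 1628 (12.8%), where they were higher in 912 (7.18%) and lower in 716 (5.63%), and with grafts 1, 2 and 4 in 4484 (35.3%).

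In what follows, rose and fell refer to limma calls against grafts 1, 2 and 4 unless all 4 grafts are named. Over all genes tested 3.98% rose and 4.85% fell, and counts near these shares do not set a list apart. For the 93 genes described below that changed in that comparison, the sign was the same against all 4 grafts. That mean includes grafts 1, 2 and 4, so the shared sign adds no support. For 91 of the 93 the limma adjusted p against all 4 grafts was between 0.107 and 0.543. The calls also rest on grafts 1 and 4 counting as separate arrays. With both averaged into 1 array, 276 genes changed and 45 of the 93 kept their call. Cd163l1, Dgkeos, Cd1d1, Cd247, Egr3, Nr4a3, Tnfaip3, Gimap6, Lcp2, Vav1, Sla, Bcl2l1, Dtx1, Myc, Ccnd1, Ccnd3, Maml1 and Shq1 lost it. So did Foxp1, Cdc20, Anln, Mki67, Ldha, Pgam1, Cdkn1b, Cdkn2d, Il2rg, Il4ra, Tfrc, Pdk1, Hba-a1, Hbb-b1 and Slc40a1. The last were Vcam1, Axl, Spic, Mt1, Fcna, Cela1, Fbln1, Pdgfrb, Xist, Kdm5d, Dnajc6, Tes, Wdr78, Fancd2 and Blm. With 1 further array left out at a time, 43 of the 93 changed in every fit. With chip as a fixed term, which ties chip 3 to the others through T-ALL 7 alone, 53 genes changed (0.417%), 44 of them lower (0.346%), and 8 of the 93 kept their call: Trbv13-1, Trbv1, Trav9d-2, Patj, Egr2, Foxp1, Xist and Zfp36.

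**Figure D2:**
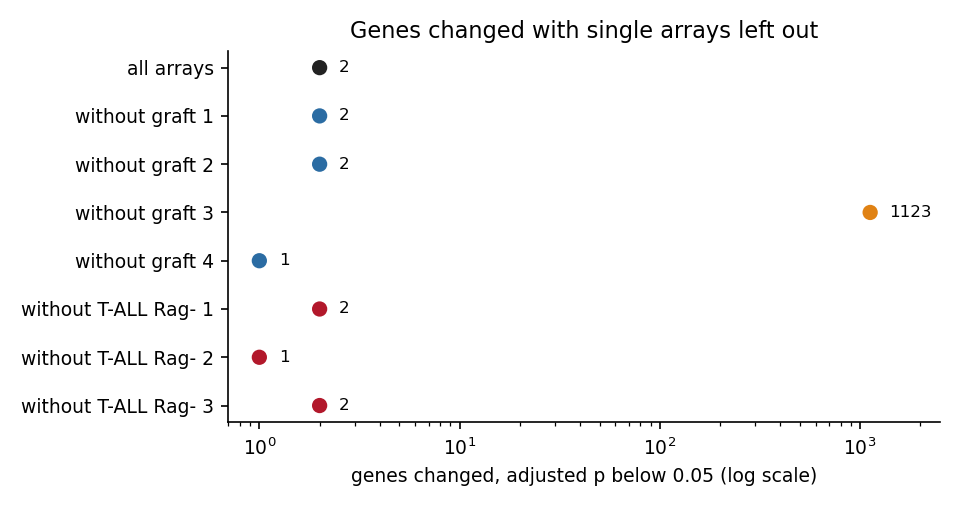
Number of genes changed between T-ALL Rag- and the grafts (horizontal axis, log scale, adjusted p below 0.05) with all arrays and with each graft or T-ALL Rag- array left out. The count is 2 with all arrays, 1123 without graft 3, and 1 or 2 without any other single array. Without T-ALL Rag- 3 only 1 of the 2 is the same gene as with all arrays.

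Both genes that fell against all 4 grafts were at or near background in T-ALL Rag-. With the compared groups alone, or without T-ALL Rag- 3, 1 of them kept its call, and with chip as a fixed term neither did. Fgf13, which encodes a fibroblast growth factor homologue that acts inside cells and is known mainly from neurons, was 6.98, 7.07 and 6.83 on the 3 T-ALL Rag- arrays, all below the threshold, and 10.71, 10.62, 10.67 and 10.64 on grafts 1 to 4. Graft 3 lay among the other grafts, and T-ALL Rag- was at least 11.6-fold lower (limma adjusted p = 0.00024, SE 0.38 on the log2 scale). A dimmer probe for Fgf13 was at a mean of 6.67 in T-ALL Rag- against 7.60 on the 4 grafts. Another had means below the threshold in both groups (6.99 and 7.04) and did not show the fall. Smoc1, a calcium-binding protein secreted into basement membranes, was 7.23, 6.84 and 6.78 in T-ALL Rag- and 10.79, 9.30, 8.81 and 10.20 in the grafts. The groups did not overlap, and the difference was -2.82 (SE 0.39, adjusted p = 0.0087). Among the other T-ALL arrays Fgf13 was 6.88 to 9.01 with a median of 7.10, and Smoc1 6.92 to 8.04 with a median of 7.08.

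Both recombinase genes were lower on every T-ALL Rag- array than on any graft, and each was above background on at least 1 T-ALL Rag- array. Rag1 was 10.53, 10.09 and 9.46 in T-ALL Rag-, well above background, and 12.44, 12.24, 10.62 and 12.58 in the grafts. The groups did not overlap, with graft 3 just above T-ALL Rag- 1, but the difference did not pass against all 4 grafts (-1.94, adjusted p = 0.241) or without graft 3 (-2.39, SE 0.81, adjusted p = 0.0764). Rag2 was 7.66, 6.93 and 6.82 in T-ALL Rag-, above the threshold on 1 array, and 9.49, 8.87, 7.81 and 9.68 in the grafts. It fell by 2.21 on the log2 scale against grafts 1, 2 and 4 (SE 0.43, adjusted p = 0.0076), and with all 4 grafts the difference was -1.83 (adjusted p = 0.122). The other T-ALL arrays spanned 9.63 to 12.31 in Rag1 and 6.82 to 8.72 in Rag2, so the T-ALL Rag- values lay within or just below the span of T-ALL without the mark. Dntt, the polymerase that adds bases at the joins, was 9.31, 9.00 and 9.95 against 12.15, 11.21, 9.74 and 12.44 (adjusted p = 0.154 without graft 3). Where in these genes the probes lie was not examined here, so the levels do not check whether a Rag gene was deleted.

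Variable segments of the TCR alpha and beta chains were lower in T-ALL Rag- than on grafts 1, 2 and 4, and graft 3 was below the threshold in most of them. Trbv13-1, a beta chain segment, was 6.88, 6.77 and 6.69 in T-ALL Rag-, all at background, and 12.77, 12.58 and 13.21 on grafts 1, 2 and 4. Graft 3, at 6.97, was also below the threshold. Without it T-ALL Rag- was at least 53.3-fold lower (limma adjusted p = 2.81e-07), the largest fall among the genes named here, and with all 4 grafts the difference was -4.60 (adjusted p = 0.119). Trbv1 was 6.89, 6.89 and 6.94 against 10.87, 10.02 and 11.34, with graft 3 at 6.95, and was at least 12.3-fold lower (adjusted p = 2.01e-06).

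The third beta segment measured, Trbv13-2, was bright on every array, at 14.03, 14.67 and 14.74 in T-ALL Rag- and 14.84, 14.91, 14.82 and 14.96 in the grafts (adjusted p = 0.644 without graft 3). Of 13 alpha segments measured, 8 fell and none rose, and on graft 3 all but 3 of them, 10 in all, were below the threshold. Trav9d-2 was 6.82, 6.81 and 6.77 against 7.70, 7.96 and 8.14, with graft 3 at 7.00, and was at least 1.76-fold lower. Trav9-1 was at least 1.93-fold lower, its T-ALL Rag- arrays and graft 3 all below the threshold. Trav9n-4 was the bright alpha segment, at 12.25, 12.44 and 13.25 in T-ALL Rag-, 14.55, 14.28 and 14.68 on grafts 1, 2 and 4 and 11.74 on graft 3 (adjusted p = 0.223). Graft 3 was thus below T-ALL Rag- in this segment. Near-identical segments can share a probe's signal, so each name may stand for its closest relatives too.

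Gamma chain transcripts split the T-ALL Rag- arrays. Trgv4 was 13.17 and 12.49 on T-ALL Rag- 1 and 2 and 7.88 on T-ALL Rag- 3, against 7.96, 8.90, 11.11 and 7.77 on the grafts. The probe named Tcrg followed, at 9.94, 11.06 and 6.92. Cd163l1, a scavenger receptor found on gamma delta T cells, was high on all 3, at 12.21, 13.96 and 10.22, and low on all 4 grafts, at 7.05, 7.76, 7.53 and 6.97. It was the largest rise among the genes named here that changed (4.87, SE 1.31, adjusted p = 0.0299; 4.80 and adjusted p = 0.119 against all 4 grafts), and 1 of 8 measured genes of the gamma delta T cell list that rose. T-ALL Rag- 3 was the lowest of the 3 in both Cd163l1 and Trgv4. Other T-ALL arrays spanned 7.73 to 13.23 in Cd163l1.

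Genes of the double-positive thymocyte were lower in T-ALL Rag-. Of 16 measured members of that list 15 lay lower against grafts 1, 2 and 4, 7 fell and none rose, with a median difference of -1.88 beside 0.02 over all genes tested. Against all 4 grafts all 16 were lower, none passed and the median was -1.56. Cd4, the coreceptor for MHC class II, was 7.05, 7.01 and 7.07 in T-ALL Rag-, below the threshold on all 3, and 10.16, 9.37, 7.94 and 10.24 in the grafts. It was at least 6.99-fold lower (adjusted p = 0.00104), and graft 3 lay between the groups. A second, dim Cd4 probe was at 7.10 in T-ALL Rag- and 7.07 on grafts 1, 2 and 4, both below the threshold.

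Plxnd1, a semaphorin receptor that steers double-positive cells towards the thymic medulla, was 8.60, 8.43 and 8.15 against 12.32, 11.37, 9.18 and 12.40, with no overlap even with graft 3 (-3.64, SE 0.42, adjusted p = 0.000162; -2.92 against all 4 grafts). Slc7a11, the cystine transporter, was 7.25, 6.97 and 6.79 against 9.79, 9.00, 7.31 and 9.85 (-2.54, adjusted p = 0.000944). Patj, a polarity scaffold, was at background on the 3 T-ALL Rag- arrays (6.56 to 6.64) and on graft 3 (6.60), and at 8.38 to 9.05 on the other grafts, at least 2.84-fold higher there (adjusted p = 3.01e-06). Dgkeos and Cd1d1, the lipid-presenting molecule that selects natural killer T cells, fell by 3.18 and 1.47 (adjusted p = 0.0151 and 0.0111). Both are among the genes listed above that lost the call with grafts 1 and 4 averaged.

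Surface receptor genes of the T lineage were mostly lower without passing the test. Of 9 measured CD3 chains and coreceptors all were lower against grafts 1, 2 and 4 and 2 fell, Cd4 and Cd247. Cd247, the zeta chain that passes the TCR signal on, was 9.44, 9.93 and 10.46 against 12.07, 12.11, 9.93 and 12.69 (-2.35, SE 0.63, adjusted p = 0.0307; -1.76 against all 4 grafts). Cd8b1, the CD8 beta chain, was 12.78, 13.43 and 13.17 against 14.96, 14.94, 14.23 and 14.90, without overlap (adjusted p = 0.0817). Of the other probes for Cd8b1, one was also lower in T-ALL Rag- (a mean of 10.34 against 14.02 on grafts 1, 2 and 4) and one was not (11.61 against 11.32), so the probes disagree in direction.

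Early response genes that a TCR signal switches on fell in part. Of 14 measured, 4 fell and none rose, with a median of -0.73 (-0.54 against all 4 grafts). Egr2, a transcription factor needed for selection, was 7.67, 7.40 and 7.25 in T-ALL Rag-, 9.88, 10.13 and 9.85 on grafts 1, 2 and 4 and 7.36 on graft 3 (-2.51, SE 0.22, adjusted p = 1.03e-05; -1.86 against all 4 grafts). Cd69, an activation antigen that marks positively selected cells, was 8.66, 9.09 and 7.70 against 11.70, 11.46 and 11.72, with graft 3 at 7.64 (-3.14, SE 0.66, adjusted p = 0.00988; -2.15 against all 4 grafts); a second probe for Cd69 was near background in both groups (7.36 and 7.32). Egr3 fell by 1.19 (adjusted p = 0.0363) and Nr4a3, near background throughout, by 0.24 (adjusted p = 0.0461).

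Of 15 measured genes of signalling below the receptor 3 fell: Sla, an adaptor that dampens the TCR, by 1.10, Lcp2 (SLP-76) by 0.92 and the exchange factor Vav1 by 0.79 (adjusted p = 0.0154 to 0.0355). In the list of mature single-positive cells and egress 3 of 13 fell, Cd69, Tnfaip3, an inhibitor of NF-kappaB signalling (-1.88), and Gimap6 (-2.05). Of 20 migration and adhesion genes 4 fell, among them Arhgef1, a signalling protein of lymphocyte migration (-1.66, adjusted p = 0.00451), Selplg, the P-selectin ligand (-1.20, adjusted p = 0.0088), and Plxnd1. Zfp36, which speeds the decay of cytokine mRNAs, was 10.06, 10.21 and 10.44 in T-ALL Rag- against 11.66, 11.56, 10.04 and 11.63 in the grafts (-1.38, adjusted p = 0.00614) and kept its call in every alternative fit without graft 3.

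**Figure D3:**
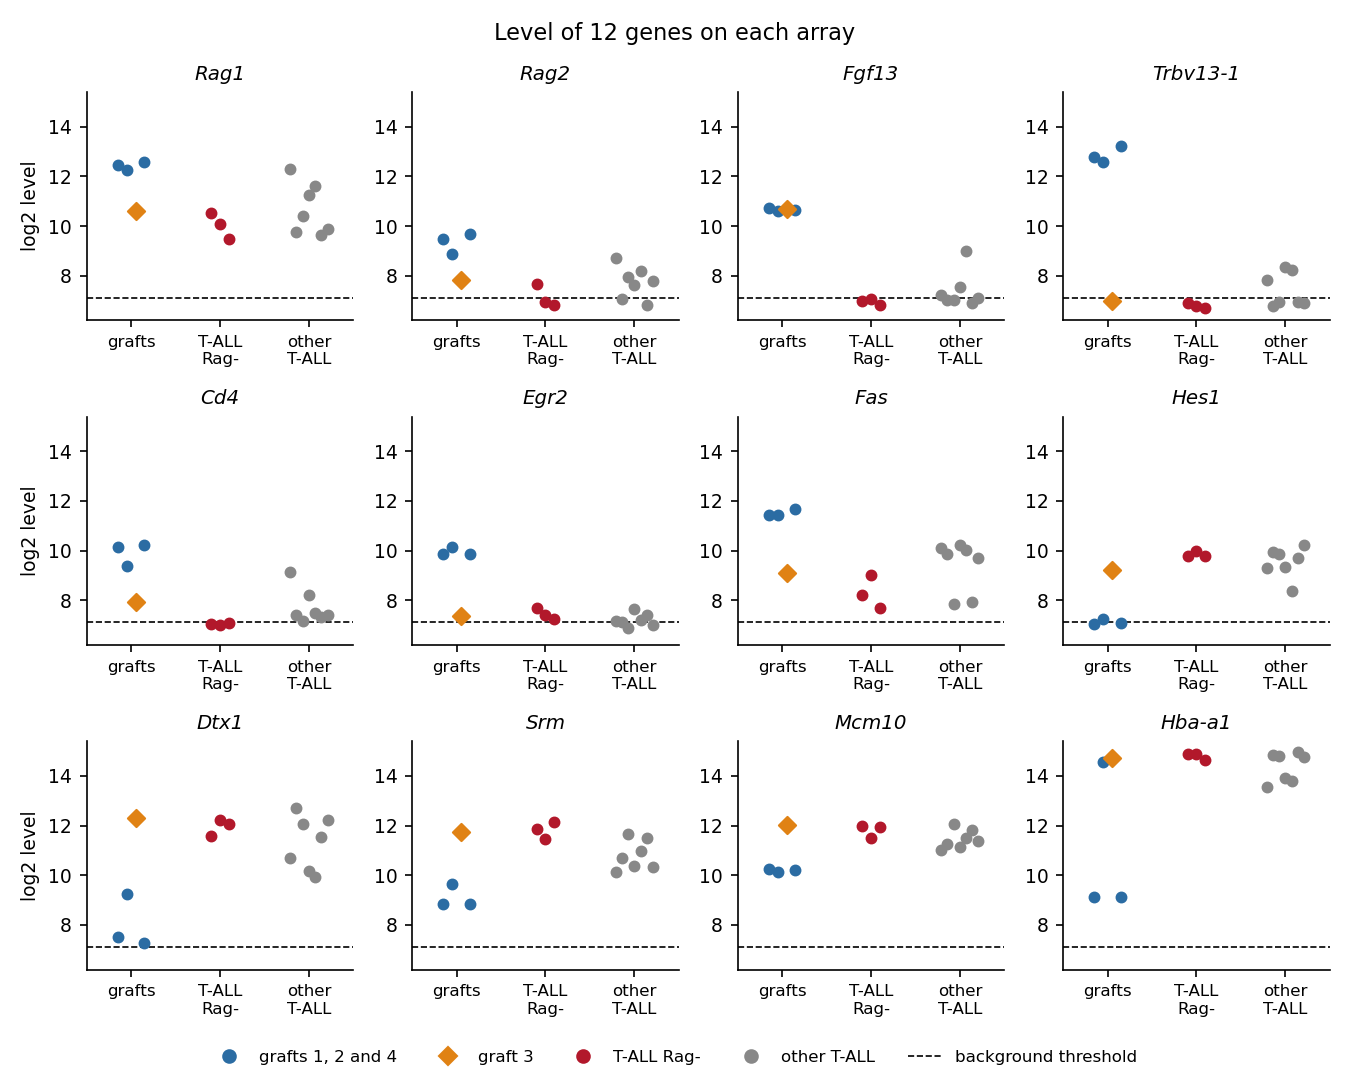
Level (log2, vertical axis) of 12 genes on each array of grafts 1, 2 and 4 (blue), graft 3 (orange diamond), T-ALL Rag- (red) and other T-ALL (grey), with the background threshold dashed. Graft 3 lies with the other grafts in Fgf13 (10.67) and near the T-ALL Rag- arrays in Trbv13-1 (6.97), Egr2 (7.36), Dtx1 (12.32), Srm (11.73) and Mcm10 (12.02).

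Several regulators of cell death were lower. Fas, a death receptor, was 8.21, 9.02 and 7.70 in T-ALL Rag- against 11.43, 11.44, 9.09 and 11.68 in the grafts, where it did not overlap even with graft 3 (-3.21, SE 0.57, adjusted p = 0.00516; -2.60 and 0.119 against all 4 grafts). Of 18 measured genes of apoptosis and survival 3 fell and none rose. Beside Fas these were 2 that protect cells, Mcl1 (11.70, 11.58 and 11.38 against 13.06, 12.55, 11.57 and 12.71, adjusted p = 0.00957) and Bcl2l1, the Bcl-xL gene of double-positive cells (8.47, 8.82 and 8.92 against 10.39, 10.55, 9.16 and 10.47, adjusted p = 0.0143). Bcl2 differed by -0.85 (adjusted p = 0.124) and the pro-apoptotic Bcl2l11 by -0.96 (adjusted p = 0.077).

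Receptors for cytokines were lower in part. Of 22 measured genes of the interleukin-7 receptor and JAK-STAT list 3 fell. Ifngr1, a chain of the interferon gamma receptor, was 9.79, 9.92 and 9.76 against 12.39, 11.67, 10.88 and 12.25 and did not overlap with graft 3 (-2.28, SE 0.46, adjusted p = 0.00807; -1.97 against all 4 grafts). The common gamma chain Il2rg fell by 1.39 and Il4ra, near background, by 0.37 (adjusted p = 0.0162 and 0.048). Il7r, which carries the survival signal of early thymocytes, was 10.49, 10.16 and 9.02 against 7.42, 10.08, 9.67 and 7.44 (adjusted p = 0.176).

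Several Notch targets were high in T-ALL Rag- and in graft 3. Of 25 measured genes of the Notch pathway 6 rose and 2 fell, with a median of 0.28, while against all 4 grafts none passed and the median was 0.30. Hes1, a repressor and a direct Notch target, was 9.78, 9.98 and 9.80 in T-ALL Rag- and 7.03, 7.25 and 7.09 on grafts 1, 2 and 4, with graft 3 at 9.24 (2.73, SE 0.49, adjusted p = 0.00571; 2.20 against all 4 grafts). Heyl, of the same family, was 8.40, 8.28 and 8.24 against 6.85, 6.82 and 6.75, with graft 3 at 7.87, and was at least 2.28-fold higher (adjusted p = 0.00945). Dtx1, a Notch target that encodes a ubiquitin ligase, was 11.60, 12.21 and 12.08 against 7.51, 9.26 and 7.26, with graft 3 above all of them at 12.32 (3.95, SE 0.87, adjusted p = 0.0121; 2.88 against all 4 grafts).

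The receptors themselves did not pass. Notch1 was 11.38, 11.81 and 10.82 against 10.02, 9.61, 11.54 and 9.54 (adjusted p = 0.0866) and Notch3 10.83, 10.56 and 9.93 against 8.89, 8.38, 11.25 and 8.69 (adjusted p = 0.133). Nrarp, a feedback inhibitor, was 10.21, 10.64 and 11.04 against 7.92, 8.41, 10.35 and 8.07 (adjusted p = 0.0699). Myc was 8.50, 8.49 and 8.91 against 7.21, 7.40, 8.40 and 7.30 and rose by 1.33 (SE 0.32, adjusted p = 0.0174), and Shq1, an assembly factor of small nucleolar particles, by 0.78 (adjusted p = 0.00982).

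Cyclin D genes went opposite ways. Ccnd1, cyclin D1, was 12.35, 10.91 and 11.30 against 7.30, 8.71, 10.65 and 7.31 (3.75, SE 0.84, adjusted p = 0.0132; 3.03 against all 4 grafts), and Ccnd3, the main D cyclin of thymocytes, was 13.28, 12.78 and 13.12 against 14.64, 14.37, 13.59 and 14.56 (-1.46, SE 0.44, adjusted p = 0.0487; -1.23 against all 4 grafts). With chip as a fixed term the sign of Ccnd3 turned (0.11, adjusted p = 0.954), and T-ALL 7 on the same chip was at 12.20. Maml1, a Notch coactivator, fell by 0.81 (adjusted p = 0.0231). Of 12 measured genes of the pre-TCR stage 2 rose, Hes1 and Dtx1. Il2ra, the CD25 gene, was 8.75, 10.09 and 9.60 against 6.96, 7.51, 8.12 and 7.01 (adjusted p = 0.0811). Ptcra, the pre-T alpha chain, was 8.94, 9.88 and 9.23 against 8.24, 8.32, 9.49 and 8.52 (adjusted p = 0.271).

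RefSeq promoter windows, from 250 bases before to 50 after a start site on GRCm38.p6, were searched for short motifs on both strands in the Notch, replication and ribosome biogenesis lists. Of the 20 Notch list members with a window, 4 held TGGGAA, the core of the RBPJ site, beside 26.9% of tested genes with a window. Only 4 of the members that changed had a window, and none of these held it. An E2F motif (TTTCCCGC or TTTGGCGC) was in 8 of 25 replication genes (32.0%) beside 3.13% of tested genes, and the E-box CACGTG, bound by Myc with Max, in 6 of 20 Myc and ribosome biogenesis genes (30.0%) beside 11.2%. Among changed members with a window the shares were smaller than over the whole lists, with 3 of 15 holding the E2F motif and 3 of 13 the E-box. These are matches of letters and not measured binding. The window of Mcm5, a subunit of the replicative helicase, and that of Mybbp1a, a nucleolar factor, are shown as the list members with the lowest adjusted p among those that rose and held the motif. Capitals mark the motif: for Mcm5 the reverse complement of TTTGGCGC, beginning 149 bases before the start, at chr8:75109259-75109558 on the plus strand, and for Mybbp1a CACGTG, 40 bases after it, at chr11:72441077-72441376 on the plus strand.
Mcm5 promoter: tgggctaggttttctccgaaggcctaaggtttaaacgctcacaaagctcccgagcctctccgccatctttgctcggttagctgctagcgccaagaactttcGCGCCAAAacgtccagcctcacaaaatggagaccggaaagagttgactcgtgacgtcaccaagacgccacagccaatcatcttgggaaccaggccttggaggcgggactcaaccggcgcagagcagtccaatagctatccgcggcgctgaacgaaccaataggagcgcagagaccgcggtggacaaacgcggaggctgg
Mybbp1a promoter: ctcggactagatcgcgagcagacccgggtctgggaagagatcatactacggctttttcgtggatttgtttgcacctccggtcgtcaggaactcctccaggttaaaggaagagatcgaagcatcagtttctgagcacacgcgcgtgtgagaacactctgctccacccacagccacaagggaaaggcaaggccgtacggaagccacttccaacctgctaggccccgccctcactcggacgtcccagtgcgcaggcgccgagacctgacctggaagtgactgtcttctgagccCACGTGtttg

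Genes that build ribosomes and those tied to Myc were higher. All 25 measured members of that list were higher, 17 rose and none fell, with a median of 1.14 (0.90 against all 4 grafts, where none passed). Srm, which makes the polyamine spermidine, was 11.86, 11.48 and 12.16 in T-ALL Rag- and 8.83, 9.65 and 8.84 on grafts 1, 2 and 4, with graft 3 at 11.73 (2.73, SE 0.41, adjusted p = 0.00149; 2.07 against all 4 grafts). Cad, the enzyme that starts pyrimidine synthesis, was 10.36, 10.26 and 10.40 against 8.16, 8.07 and 8.08, with graft 3 at 10.21 (2.24, SE 0.45, adjusted p = 0.00795; 1.71 against all 4 grafts). Polr1b, a subunit of RNA polymerase I, rose by 1.67 (adjusted p = 0.0076), and Mybbp1a, whose window is shown above, was 11.68, 11.56 and 12.04 against 10.18, 10.43 and 9.94, with graft 3 at 11.64 (adjusted p = 0.00795). The list mean on graft 3, 11.09, lay within the T-ALL Rag- span of 10.93 to 11.18, and the other grafts were at 9.71 to 9.98.

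DNA replication genes were higher too. All 29 measured genes were higher, 17 rose and none fell, with a median of 0.96 (0.68 against all 4 grafts, none passing). Mcm10, a replication initiation factor, was 11.97, 11.52 and 11.96 against 10.27, 10.15 and 10.20, with graft 3 at 12.02 (1.61, SE 0.32, adjusted p = 0.00795; 1.16 against all 4 grafts). Rrm1, a subunit of ribonucleotide reductase, rose by 1.35, the histone chaperone Chaf1a by 1.27 and the helicase cofactor Cdc45 by 1.21 (adjusted p = 0.00616 to 0.00795). Mcm5 was 13.25, 13.27 and 13.49 against 12.42, 12.49 and 12.23, with graft 3 at 13.68 (0.96, adjusted p = 0.00943).

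In mitosis 9 of 24 rose and none fell, with a median of 0.58 (0.38 against all 4 grafts). The kinases Plk1 and Cdk1 rose by 1.17 and 0.96 (adjusted p = 0.00663 and 0.00616), Anln, which forms the contractile ring, by 1.29 and Cdc20, an activator of the anaphase-promoting complex, by 0.76. Mki67, a marker of cycling cells, was 12.16, 12.62 and 10.85 against 9.70, 9.64, 12.54 and 9.72 and rose by 2.19 (SE 0.65, adjusted p = 0.0453; 1.48 against all 4 grafts). Of 20 DNA repair genes 4 rose, among them Fancd2 and Blm, by 1.00 and 1.30.

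Enzymes of serine, folate and nucleotide synthesis rose in part. All 18 measured were higher, 11 rose and none fell (median 1.32; 1.03 against all 4 grafts). Of the 18, 10 were higher without overlap with all 4 grafts, beside 7.18% of all genes. Mthfd1, a folate enzyme, was 11.07, 10.90 and 11.26 against 8.95, 9.52, 10.87 and 8.81 (1.98, SE 0.30, adjusted p = 0.00159; 1.54 against all 4 grafts). Psat1, of serine synthesis, rose by 1.78, Impdh2, which commits purines to guanine nucleotides, by 1.36 and Gart, of purine synthesis, by 1.30 (adjusted p = 0.00571 to 0.00735).

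Of 21 glycolysis and hypoxia genes 5 rose and 1 fell. Pkm, pyruvate kinase, was 13.66, 13.49 and 13.19 against 12.07, 12.62, 12.84 and 11.90, without overlap (1.25, SE 0.19, adjusted p = 0.00185; 1.09 against all 4 grafts), and Tpi1, Ldha and Pgam1 rose by 1.45, 0.86 and 1.06. Pdk1, a kinase that inhibits pyruvate dehydrogenase, fell by 1.58 (adjusted p = 0.0162). The mitochondrial chaperone Hspd1 rose by 1.82 (adjusted p = 0.00666). Of 22 cytosolic ribosomal proteins 2 rose, with a median of 0.11 (0.09 against all 4 grafts).

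Genes that hold the cell cycle were lower in part: 4 of 19 measured fell and none rose. Btg1, an antiproliferative gene of resting lymphocytes, was 12.95, 12.96 and 12.57 against 14.41, 14.29, 13.18 and 14.18, and Sesn1, a sestrin that restrains mTORC1, 10.69, 10.55 and 10.25 against 11.78, 11.71, 10.77 and 11.75; neither overlapped with graft 3 (adjusted p = 0.00616 and 0.00623). The inhibitors Cdkn2d and Cdkn1b fell by 1.67 and 0.67 (adjusted p = 0.0147 and 0.0133). Cdkn2a, the p16 and p19 locus, was 8.81, 7.77 and 7.75 against 7.10, 7.41, 7.32 and 7.27 (adjusted p = 0.067).

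Among chromatin regulators 1 of 25 rose and 2 fell, beside 3.98% and 4.85% of all genes, so the counts do not set this list apart. The DNA methyltransferase Dnmt3b was 9.92, 10.18 and 10.21 against 8.27, 8.56, 9.91 and 8.06 (1.81, SE 0.27, adjusted p = 0.00159; 1.40 against all 4 grafts), and Hmgn3, a nucleosome-binding protein, fell by 2.23 (adjusted p = 0.00512). Of 19 T lineage transcription factors 1 fell, near the share of all genes (4.85%). It was Foxp1, which keeps T cells quiescent, and the fall was 1.05 (SE 0.28, adjusted p = 0.0298). Bcl11b differed by -1.30 (adjusted p = 0.157), Gata3 by 0.34 (0.803), Ikzf1 by -0.59 (0.525) and Lef1 by 0.04 (0.972), all by limma.

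**Figure D4:**
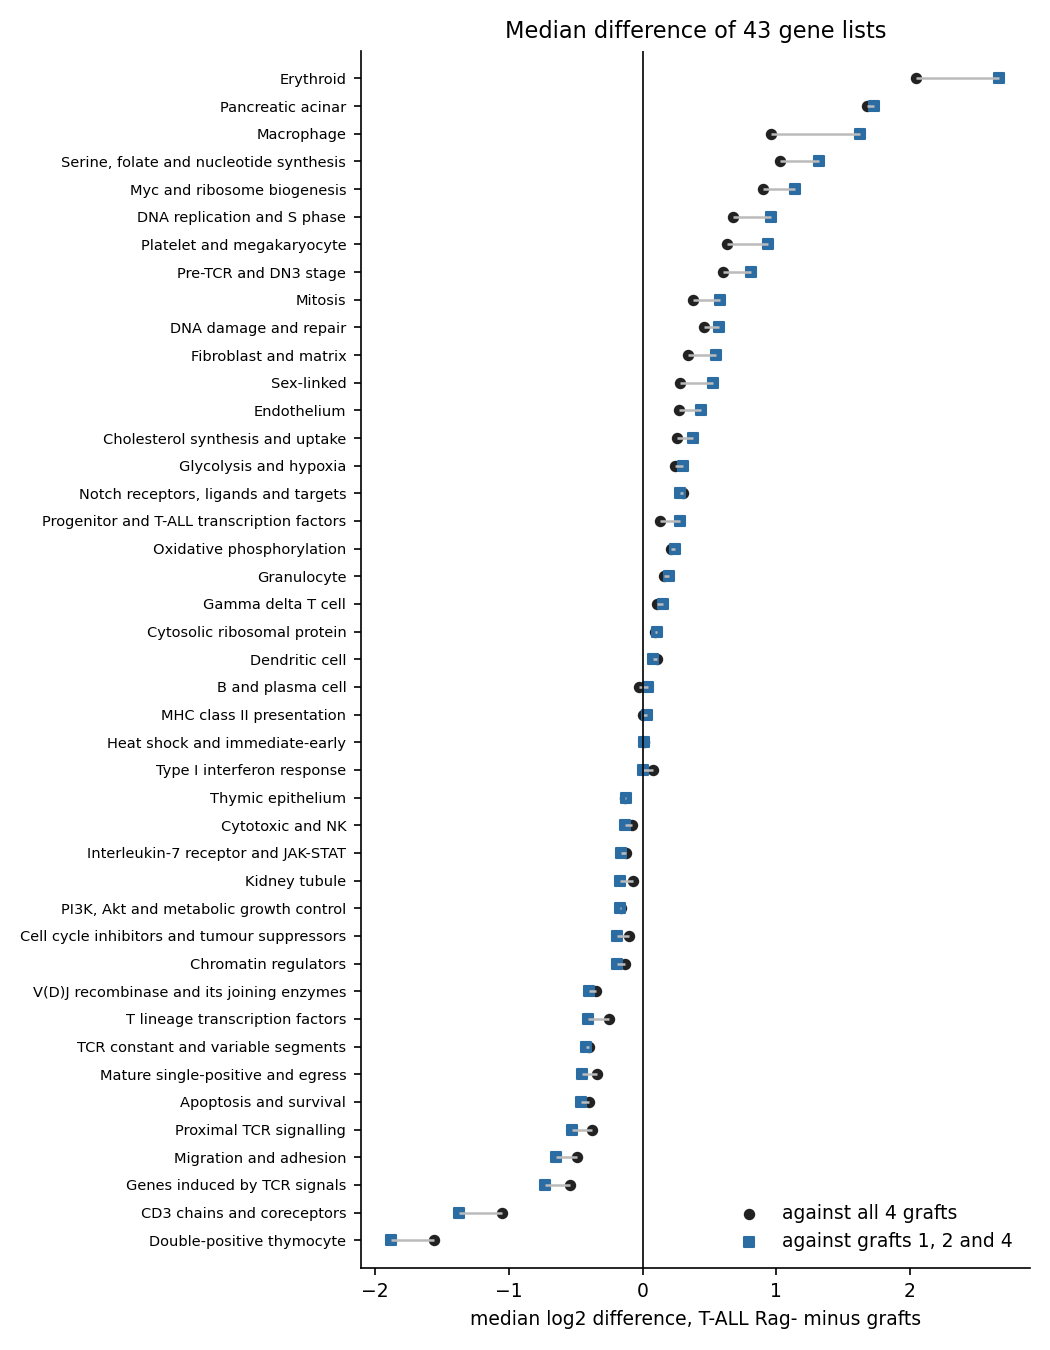
Median log2 difference (T-ALL Rag- minus grafts, horizontal axis) of each of 43 gene lists against all 4 grafts (black circles) and against grafts 1, 2 and 4 (blue squares). The erythroid list lies at the top (2.05 and 2.67) and the double-positive thymocyte list at the bottom (-1.56 and -1.88).

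Markers of other cells differed between the same arrays, and their part in the results above was not tested. Erythroid RNA was low on grafts 1 and 4 and high on graft 2, graft 3 and all T-ALL Rag- arrays. The mean of its 17 measured genes was 10.46, 10.81 and 10.60 in T-ALL Rag- and 7.34, 9.53, 10.43 and 7.37 on grafts 1 to 4. The globin gene Hba-a1 was 14.90, 14.90 and 14.66 against 9.13, 14.58, 14.73 and 9.11, and Hbb-b1 was like it at 14.61 to 14.93 against 8.95, 14.85, 14.94 and 9.07. Both rose, with Tfrc, the transferrin receptor of erythroid and dividing cells (12.81, 12.82 and 12.16 against 9.87, 9.92, 12.40 and 10.00). Alas2 and Slc4a1, which are particular to red cell precursors, were at background on grafts 1 and 4 (6.74 to 6.83) and at 12.34 to 14.34 in T-ALL Rag-. Grafts 2 and 3 were at 12.59 and 12.52 in Alas2 and 12.58 and 13.98 in Slc4a1, and neither gene passed (adjusted p = 0.142 and 0.126). Fewer cells of a type and less RNA per cell cannot be told apart in such bulk samples.

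Graft 2 lay near grafts 1 and 4 in the growth and Notch lists. Its list means were 9.98 for ribosome biogenesis, 10.05 for replication and 8.67 for Notch, beside 9.71 to 9.73, 9.93 to 10.12 and 8.58 to 8.63 on grafts 1 and 4. Any part of erythroid RNA in these lists was not tested. Levels of 3 factors of the progenitor and T-ALL list went up from grafts 1 and 4 over graft 2 to graft 3. Tal1, also a factor of red cell precursors, was 9.68, 9.67 and 9.75 against 6.58, 7.47, 9.32 and 6.62, Lmo2 10.74, 10.86 and 10.62 against 6.87, 9.69, 10.69 and 6.97, and Nfe2 10.62, 10.85 and 11.11 against 6.89, 8.97, 10.43 and 6.86. None passed (adjusted p = 0.0798, 0.071 and 0.0619), nor did any of the 16 measured genes of that list, among them Lyl1 (1.11), Hhex (0.23) and Kit (-0.30).

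Macrophage genes had a list mean of 9.92, 10.04 and 8.75 in T-ALL Rag- and 7.22, 9.13, 10.32 and 7.18 on grafts 1 to 4. Of 22 measured 21 were higher, with a median of 1.63 (0.96 against all 4 grafts, where 20 were higher). The 4 that rose were the iron exporter Slc40a1, Vcam1, Axl and Spic, all known from macrophages that clear red cells, with graft 3 the highest array in each. Of the members that did not pass, Itgam was below the threshold on all 7 arrays (6.72 to 6.93), and Adgre1, a surface marker of mouse macrophages, was 9.24, 8.83 and 7.47 against 6.63, 8.30, 9.99 and 6.73 (adjusted p = 0.261). Fcna, a ficolin of macrophages, was 11.98, 13.10 and 10.68 against 6.81, 8.42, 12.77 and 7.09, and rose. Plac8 was 12.91, 13.08 and 13.18 against 7.89, 11.40, 11.67 and 7.80, and the metallothionein gene Mt1 11.99, 12.15 and 12.28 against 6.92, 11.21, 12.09 and 6.88; both rose. The interferon gene Rsad2 was 11.78, 11.30 and 12.38 against 7.64, 11.00, 10.71 and 7.68 (adjusted p = 0.13). Egfl7, a secreted endothelial factor, was 10.63, 10.34 and 11.27 against 7.71, 8.48, 10.96 and 7.81 (2.75, SE 0.36, adjusted p = 0.000525; 2.01 against all 4 grafts). Of 15 measured endothelium genes 2 rose and none fell, with 14 higher, 1 lower and a median of 0.44 (0.27 against all 4 grafts). Of 20 measured fibroblast and matrix genes 3 rose and none fell, with 16 higher, 4 lower and a median of 0.55 (0.34 against all 4 grafts). Among them Fbln1 and Pdgfrb rose by 2.64 and 2.31 (adjusted p = 0.0293 and 0.0283). Fbln1 was at 10.97, 9.34 and 11.71 in T-ALL Rag-, 10.89 on graft 3 and 11.33 to 12.21 in the other T-ALL. Lists of thymic epithelium and kidney tubule had no member that changed. Graft 2 was the highest array of the 7 in both. The kidney tubule mean was 7.02, 8.73, 7.41 and 7.12 on grafts 1 to 4 and 7.54, 7.49 and 7.52 in T-ALL Rag-. The thymic epithelium mean was 7.29, 7.79, 7.33 and 7.27 on the grafts and 7.39, 7.37 and 7.12 in T-ALL Rag-.

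Pancreatic enzymes were high on T-ALL Rag- 1 and 3. The mean of 19 acinar genes was 9.53 and 9.55 on these and 7.08 on T-ALL Rag- 2, against 6.93 to 7.41 on the grafts. T-ALL 7, which shares chip 3 with T-ALL Rag- but not the mark, was at 8.45, and T-ALL 1 to 6 were at 6.92 to 7.03. The amylase gene Amy2a5 was 13.90, 7.33 and 13.54 against 6.76, 6.89, 9.85 and 7.06, and the elastase Cela1, expressed beyond the pancreas, was the only member that rose (2.53, SE 0.72, adjusted p = 0.0391; 2.15 against all 4 grafts).

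**Figure D5:**
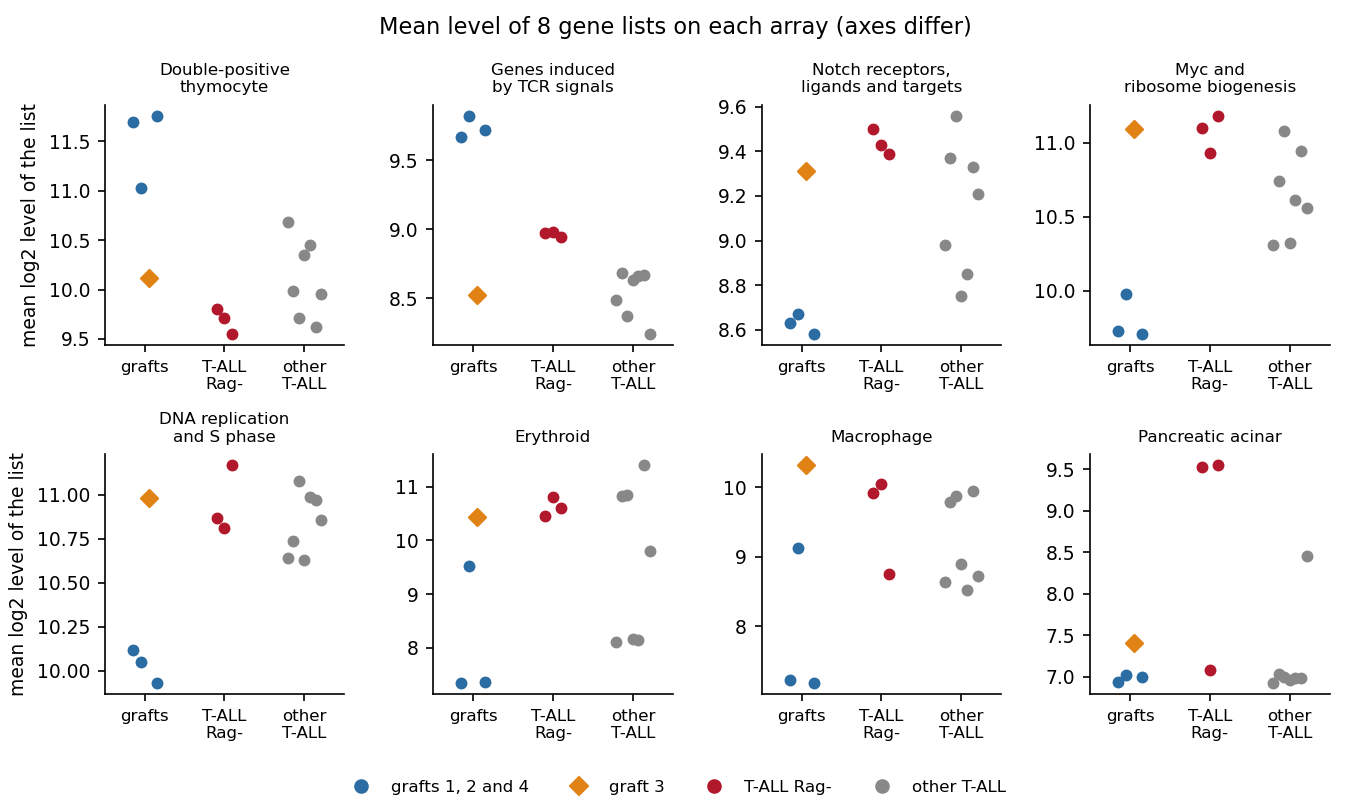
Mean log2 level (vertical axis, range set for each list) of 8 gene lists on each array of grafts 1, 2 and 4 (blue), graft 3 (orange diamond), T-ALL Rag- (red) and other T-ALL (grey). Graft 3 lies near T-ALL Rag- in the replication list (10.98) and the erythroid list (10.43), and T-ALL Rag- 1 and 3 stand above every other array in the pancreatic list, at 9.53 and 9.55.

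Sex-linked genes also divided graft 3 from the other grafts. Xist, transcribed from the inactive X chromosome of females, was 10.18, 9.44 and 9.42 on grafts 1, 2 and 4 and at background on graft 3 (6.75) and in T-ALL Rag- (6.76, 6.77 and 7.00), at least 5.90-fold lower in T-ALL Rag- (adjusted p = 0.043). The Y-linked gene Kdm5d was 7.75, 8.16 and 7.51 in T-ALL Rag-, 8.66 on graft 3 and at background on grafts 1, 2 and 4 (6.70 to 6.90), and Eif2s3y was 7.55, 9.59 and 8.22 against 7.48 on graft 3 and 6.64 to 6.68 on the others. In the comparison without graft 3, sex as read from these genes therefore differs with group, and the 2 cannot be told apart.

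The T-ALL Rag- arrays also differed among themselves. In 127 genes they spanned 2 or more on the log2 scale, and the median SD over genes was 0.172, beside 0.223 over the 4 grafts, 0.155 over grafts 1, 2 and 4 and 0.244 over the other T-ALL. The genes with the widest spans, chosen after their values had been seen, were led by immunoglobulin light chains. Iglv1 was 14.78, 7.08 and 6.61 and Igkc 14.36, 10.29 and 7.21, so T-ALL Rag- 1 alone was bright in both, and on the grafts Igkc ranged from 7.84 on graft 4 to 15.19 on graft 3. Ly6d, a lymphoid surface protein, was 12.75 and 13.21 on T-ALL Rag- 1 and 3 and 7.69 on T-ALL Rag- 2, below every graft and every other T-ALL array (12.15 to 14.57). Scara3 was 12.31 on T-ALL Rag- 2 and 7.69 and 6.71 on the others.

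Other large falls were in genes outside the lists. Dnajc6, a cofactor of clathrin uncoating, was 7.48, 7.73 and 7.06 against 11.59, 10.77, 7.27 and 11.62 (adjusted p = 0.0111), Tes, a focal adhesion protein, 8.10, 7.65 and 7.65 against 11.50, 12.14, 7.86 and 11.36 (0.0259) and Wdr78, a dynein component, 7.70, 7.76 and 7.03 against 11.63, 9.98, 8.47 and 11.35 (0.00896), all by limma. The other T-ALL medians were 7.68, 8.49 and 7.58. Against all 4 grafts the differences were -2.89, -2.92 and -2.86 and none passed.

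Against the 7 other T-ALL arrays no gene passed by limma (0.0%; 652 genes, 5.13%, had an unadjusted p below 0.05, and the smallest adjusted p was 0.896). For the 93 genes that changed against grafts 1, 2 and 4, the adjusted p against other T-ALL was between 0.901 and 0.999. The values were lower than the other T-ALL in Kit (-1.77, unadjusted p = 0.00756) and Jdp2 (-1.12, unadjusted p = 0.000532) before adjustment. Kit, the stem cell factor receptor, was 7.91, 7.33 and 7.50 against a T-ALL median of 9.74, and Jdp2, an AP-1 repressor, was 7.61, 7.49 and 8.20 against 8.96. T-ALL Rag- lay within or below the span of the grafts in Kit (7.72 to 9.11) and above that of the grafts in Jdp2 (7.25 to 7.37). T-ALL 7, on the chip of T-ALL Rag-, was at 8.08 and 8.69.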

How the data were processed

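RNA was taken with RNAzol B and biotinylated cRNA was made with the Ambion MessageAmp kit, per the labels' protocols. The deposited values are log2 and quantile normalized by the authors, one per probe (46089) and array (20). Other processing is not given in the sources used here, and 20 columns of a second, non-normalized table were not used. Symbols were updated through RefSeq; 35667 probes had 1 symbol and 10422 none. The background threshold was the mode (6.78) plus 3 SD (0.1128) of the values below it. Each gene was represented by its brightest probe, and 12710 genes above the threshold on at least 2 arrays were tested with limma 3.58.1 in R 4.3.3: group means over all 20 arrays, an intensity trend and Benjamini-Hochberg adjustment at 0.05. Where every array of the dimmer group was below the threshold, a fold is a bound, from the brighter group's mean to the threshold. The code was tested on simulated data. Alternatives were 1 array left out, the compared groups or chips 1 to 3 alone, chip as a fixed term or random block, other filters, background subtraction, centring, the mean of probes and other variance models.

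The members and gene lists were chosen with earlier results of these data known. The genes named are Rag1, Rag2 and Dntt, the 8 largest rises and falls among called genes without overlap, up to 4 called members a list (or the 2 brightest) and a set of T-ALL genes, of which some are given only in counts. Named outside this rule, after their values were seen, were Adgre1, Alas2, Amy2a5, Ccnd3, Cd1d1, Cd3d, Dgkeos, Igkc, Iglv1, Itgam, Maml1, Mcm5, Scara3, Slc4a1, Tcrg, Trav9-1, Trav9d-2, Trav9n-4, Trbv13-2 and Trgv4.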

Additional observations from a re-analysis of the deposited data

Results flagged for a closer look

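The 4 grafts were screened for a single array far from the other three by the gap to its nearest neighbour divided by the range of the group, with a critical value of 0.829. Chance passes about 1 group in 20, and the groups of 3 and the other T-ALL were not screened. Over all tested genes 1139 passed (8.96%), and graft 3 was the far array in 712 of them (62.5%), graft 2 in 292, graft 1 in 71 and graft 4 in 64. Among the genes named here graft 3 was the far array in each that passed. Many of these genes were named from calls made with graft 3 left out. That choice favours genes in which grafts 1, 2 and 4 lie close together. The named genes and their ratios therefore do not measure how often graft 3 is the far array. The shares over all tested genes do not rest on that choice.

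In T cell receptor segments, surface and TCR-induced genes the ratio for graft 3 was, by gene, Trbv13-1 0.899, Trav9n-4 0.864, Cd8b1 0.918, Egr2 0.899, Cd69 0.936, Gimap6 0.866, Zfp36 0.938. In genes of cell death and cell cycle control the ratio for graft 3 was, by gene, Fas 0.903, Bcl2l1 0.885, Sesn1 0.931, Cdkn2d 0.873. In Notch targets and genes of growth, replication and repair the ratio for graft 3 was, by gene, Hes1 0.9, Heyl 0.911, Myc 0.84, Cad 0.958, Mcm10 0.936, Cdc45 0.843, Mki67 0.972, Gart 0.842, Tfrc 0.949, Blm 0.869. In pancreatic, stromal and sex-linked genes the ratio for graft 3 was, by gene, Amy2a5 0.903, Fbln1 0.88, Pdgfrb 0.939, Kdm5d 0.898, Eif2s3y 0.952. 

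The mean over a list set graft 3 apart in the genes induced by TCR signals (ratio 0.887), Notch genes (0.871), apoptosis genes (0.968), cell cycle inhibitors (0.93), platelet genes (0.911) and endothelium genes (0.893). Graft 2 stood apart in the interleukin-7 receptor and JAK-STAT list (0.879) and in the thymic epithelium list (0.877), with means of 8.93 and 7.79. What sets graft 3 apart was not tested.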

How the results depend on the processing

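The number of genes changed against the grafts turned on graft 3. With all 4 grafts it was 2, and with 1 array left out at a time it ran from 1 (without graft 4, or without T-ALL Rag- 2) to 1123 (without graft 3). It was 4 with the compared groups alone (1 shared with the 2) and 9 with chip as a fixed term (none shared with the 2). It was 605 with chip as a random block, 1 with the chip 2 grafts alone and 4 with background subtracted. Without graft 3 the count of 1123 ran from 251 (without graft 1) to 1089 (without graft 2) with 1 more array left out, with 295 without graft 4 and 461, 651 and 489 without T-ALL Rag- 1, 2 and 3. It was 2120 with the compared groups alone, 2017 with chip as a random block, 276 with grafts 1 and 4 averaged and 53 with chip as a fixed term, 29 of them shared with the 1123. Against other T-ALL the count of 0 became 1 without T-ALL Rag- 3 and 21 with chip as a fixed term. The cause of these changes was not tested. The fits without graft 3, and those with grafts 1 and 4 averaged, were chosen after seeing the data.

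Signs turned in a few genes, none of them past the threshold in the turned fit. Against all 4 grafts, the difference of Hhex ran from -0.01 (without graft 4) to 0.25 (without graft 2) and that of Lef1 was -0.02 and -0.03 without T-ALL Rag- 2 and 3 and 0.22 without T-ALL Rag- 1. With chip as a fixed term it was 0.28 for Bcl2, 0.36 for Ccnd3, -0.0033 for Il2ra, 0.87 for Kit and -0.99 for Eif2s3y. Without graft 3, Lef1 was at -0.01 without graft 2, -0.03 and -0.05 without T-ALL Rag- 2 and 3, 0.21 without T-ALL Rag- 1 and -0.01 with chip as a random block, and with chip as a fixed term Ccnd3 was at 0.11, Kit at 1.12 and Eif2s3y at -0.70. Of 2601 values of the genes described against all 4 grafts 2441 kept direction and side of the threshold. Only 2 genes had a call to lose there, so this mostly meant staying without a call and does not measure stability. Without graft 3, 1802 of 2229 kept both, and 376 lost the call. Centring moved array medians by -0.152 to 0.048, and the calls without graft 3 were then 518 higher and 695 lower. No paired analysis was possible because the replicate numbers were given in accession order and the labels pair no grafts with T-ALL Rag- arrays. The number of arrays limits the precision, and values near 7.12 are close to background.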
